A study of Bos taurus with 22 samples.

Results

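The B cell receptor and the coreceptors and surface proteins that act with it were followed through 9 genes, MS4A1, CD79A, CD79B, CR2, TNFRSF13C, FCER2, VPREB3, PAX5 and CD22, in RNA-seq of the jejunal mucosa. They were chosen by gene symbol as genes that B cells use, with earlier results of these data known. Each symbol matched 1 of the 27570 genes in the count table. Libraries of 22 Holstein steers, within their first year of age, were analysed. Every steer received raw corn starch into the abomasum at 3.94 g/kg of body weight per day and every steer was injected, for 7 d. Control steers (n = 5) were infused with starch and water and injected with the BSA vehicle, and GLP-2 steers (n = 5) had the same infusion with 100 µg/kg of GLP-2 per day. Casein steers (n = 6) had 1.30 g/kg of casein per day in the infusion and the BSA vehicle, and casein + GLP-2 steers (n = 6) received both casein and GLP-2. The replicate number is that of the block of steers grouped by body weight. Mucosa was scraped from the everted jejunum, so each library mixes epithelium, lamina propria and any lymphoid follicle that lay in the scraped piece.

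The B cell receptor is a membrane immunoglobulin that binds antigen and a heterodimer of CD79A and CD79B that carries the signal into the cell. A coreceptor complex that includes CR2 and CD81 lowers the amount of antigen needed, while CD22 recruits phosphatases that damp the signal. In the gut these genes are used by B cells of Peyer's patches and smaller lymphoid follicles, whereas plasma cells, which secrete the IgA of the mucosa, have switched most of them off.

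Total counts ranged from 8809666 to 28447810 per steer, with a median of 12028560.5. No pair of libraries was identical. Levels are given as CPM, counts scaled to the library total after TMM normalization, which compare 1 gene between steers, and as FPKM, which also divide by gene length and so compare genes with each other. A set of 4 BSA steers stood apart from all others in these genes. The calls between GLP-2 and BSA given below were lost when all 4 were left out, a choice made by these same levels. Control replicates 1, 3 and 5 and casein replicate 3 were the 4 highest steers for each of the 9 members. Their mean log2 CPM over the members was 5.83, 6.92, 6.12 and 6.60, against 3.36 in the next steer, control replicate 4. Their total counts (11490049 to 20655744) and body weights (221.4 to 269.5 kg) lay within the range of the other steers. Their RNA integrity was not compared. The part of tissue sampling in their levels was not tested. At the other end, control replicate 2 stood 21st of 22 steers with a mean log2 CPM of -0.27, below 10 of the 11 GLP-2 injected steers.

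CD79A (ENSBTAG00000001882, chr18:51344675-51348682 on the minus strand of ARS-UCD1.2) and CD79B (ENSBTAG00000044204, chr19:48132030-48135645, minus strand) encode the signalling heterodimer. In control steers, in the order of replicates 1 to 5, CD79A was at 98.0, 4.94, 214.6, 18.3 and 154.1 CPM. In GLP-2 steers, replicates 1, 3, 4, 5 and 6, it was at 8.46, 5.76, 5.05, 6.70 and 5.57 CPM. Control steers thus spanned low and high levels, with 4 of 5 above every GLP-2 steer and replicate 2 below all of them. In casein steers CD79A ranged from 6.11 to 107.8 CPM with a median of 12.01, and in casein + GLP-2 steers from 1.97 to 7.91 CPM with a median of 5.66. Of the 11 BSA steers, 8 were above every GLP-2 injected steer.

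CD79B showed the same steers at the top with a wider range. Control steers held 76.97, 0.618, 220.8, 8.84 and 90.9 CPM, and GLP-2 steers 1.84, 0.456, 1.15, 2.33 and 0.458 CPM. Casein steers ran from 1.69 to 89.1 CPM (median 2.41) and casein + GLP-2 steers from 0.0710 to 4.26 CPM (median 1.27). The lowest value, in casein + GLP-2 replicate 3, was a single count. CD79B exceeded all GLP-2 injected steers in 6 of 11 BSA steers, so the groups overlapped more than for CD79A.

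MS4A1 (ENSBTAG00000004580, chr15:83282746-83298109, plus strand) encodes CD20, a B cell surface protein that associates with the receptor. Control steers had 324.7, 0.794, 293.3, 28.2 and 181.6 CPM, and GLP-2 steers 5.19, 1.45, 4.52, 2.23 and 1.91 CPM. Casein steers ranged from 2.07 to 366.4 CPM with a median of 16.1, and casein + GLP-2 steers from 0.355 to 9.46 CPM with a median of 2.64. Above every GLP-2 injected steer lay 8 of 11 BSA steers, and the 3 that did not were control replicate 2 and casein replicates 4 and 6.

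CR2 (ENSBTAG00000038496, chr16:5397503-5446979, plus strand) encodes CD21, the complement receptor of the coreceptor, which follicular dendritic cells carry as well as B cells. Control steers held 201.8, 0.882, 276.5, 34.8 and 161.7 CPM. GLP-2 steers held 0.878, 0.953, 1.89, 1.94 and 0.839 CPM, so that 4 controls lay far above every GLP-2 steer and replicate 2 lay among them. Casein steers spanned 1.98 to 498.4 CPM (median 10.3), and the top value was that of casein replicate 3. Casein + GLP-2 steers lay between 0.984 and 6.23 CPM (median 2.93). The BSA steers above all GLP-2 injected steers were 7 of 11.

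CD22 (ENSBTAG00000011887, chr18:46035958-46049444, plus strand), the inhibitory lectin, moved over the narrowest range of the members, 5.90 on the log2 CPM scale against 6.67 to 10.0 for the others. Control steers held 85.5, 5.47, 110.9, 17.0 and 121.7 CPM, and GLP-2 steers 7.58, 7.83, 13.8, 14.9 and 2.67 CPM. Casein steers ranged from 7.99 to 168.0 CPM (median 15.9) and casein + GLP-2 steers from 5.55 to 18.5 CPM (median 7.85). Here 5 of 11 BSA steers stood above all GLP-2 injected steers, and the medians were 17.2 CPM with BSA and 7.83 CPM with GLP-2.

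FCER2 (ENSBTAG00000004270, chr7:16531763-16544273, minus strand) encodes CD23, the low-affinity IgE receptor of mature follicular B cells. It ranged from 0.176 to 58.6 CPM in control steers and from 0.332 to 1.46 CPM in GLP-2 steers. In casein steers the range was 0.331 to 69.7 CPM, but casein replicate 3 alone was above 2.62 CPM. Casein + GLP-2 steers ranged from 0 to 1.73 CPM, with 0 counts in replicate 3, which allows up to 0.213 CPM (3 counts, counting error only). In FCER2, 6 of 11 BSA steers were above all GLP-2 injected steers.

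TNFRSF13C (ENSBTAG00000026489, chr5:112905857-112907803, minus strand) encodes the BAFF receptor, through which B cells receive their survival signal. Control steers held 24.7, 0.265, 58.8, 3.21 and 20.3 CPM, and GLP-2 steers 0.559, 0.332, 0.534, 0.970 and 0.381 CPM. In casein steers it ran from 0.658 to 46.9 CPM (median 1.41), and in casein + GLP-2 steers from 0 to 1.26 CPM (median 0.462). The GLP-2 injected values stood on few reads, since 4 of 11 such libraries held at least 10 counts of the gene.

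VPREB3 (ENSBTAG00000051134, chr17:71220220-71222109, minus strand) encodes a relative of the surrogate light chain. It ranged from 0.176 to 165.2 CPM in control, 0.456 to 1.60 CPM in GLP-2, 0.528 to 51.6 CPM in casein and 0.213 to 3.62 CPM in casein + GLP-2 steers. The lowest of all 22 steers in VPREB3 was control replicate 2, with 2 counts. The genes of early B cell development that accompany the surrogate light chain were near or at 0: DNTT, of antigen receptor recombination, had 0 counts in every steer, the entries for RAG1 and RAG2 had at most 2, and of the table's 2 entries for VPREB1 one had 0 and the other at most 12 counts.

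PAX5 (ENSBTAG00000012498, chr8:60998035-61178197, minus strand), the transcription factor that keeps B cell identity, had the fewest reads. Control steers held 4.66, 0.0882, 23.2, 2.70 and 15.7 CPM. GLP-2 steers held 0, 0.124, 0, 0 and 0.0763 CPM, that is 0, 3, 0, 0 and 1 counts. Over all steers 9 had 0 counts, 3 of them casein steers, and a count of 0 allowed 0.123 to 0.344 CPM in these libraries. Above every GLP-2 injected steer stood 5 BSA steers, which were the 4 high steers and control replicate 4. No other annotated gene overlapped any of the 9 members.

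**Figure D1:**
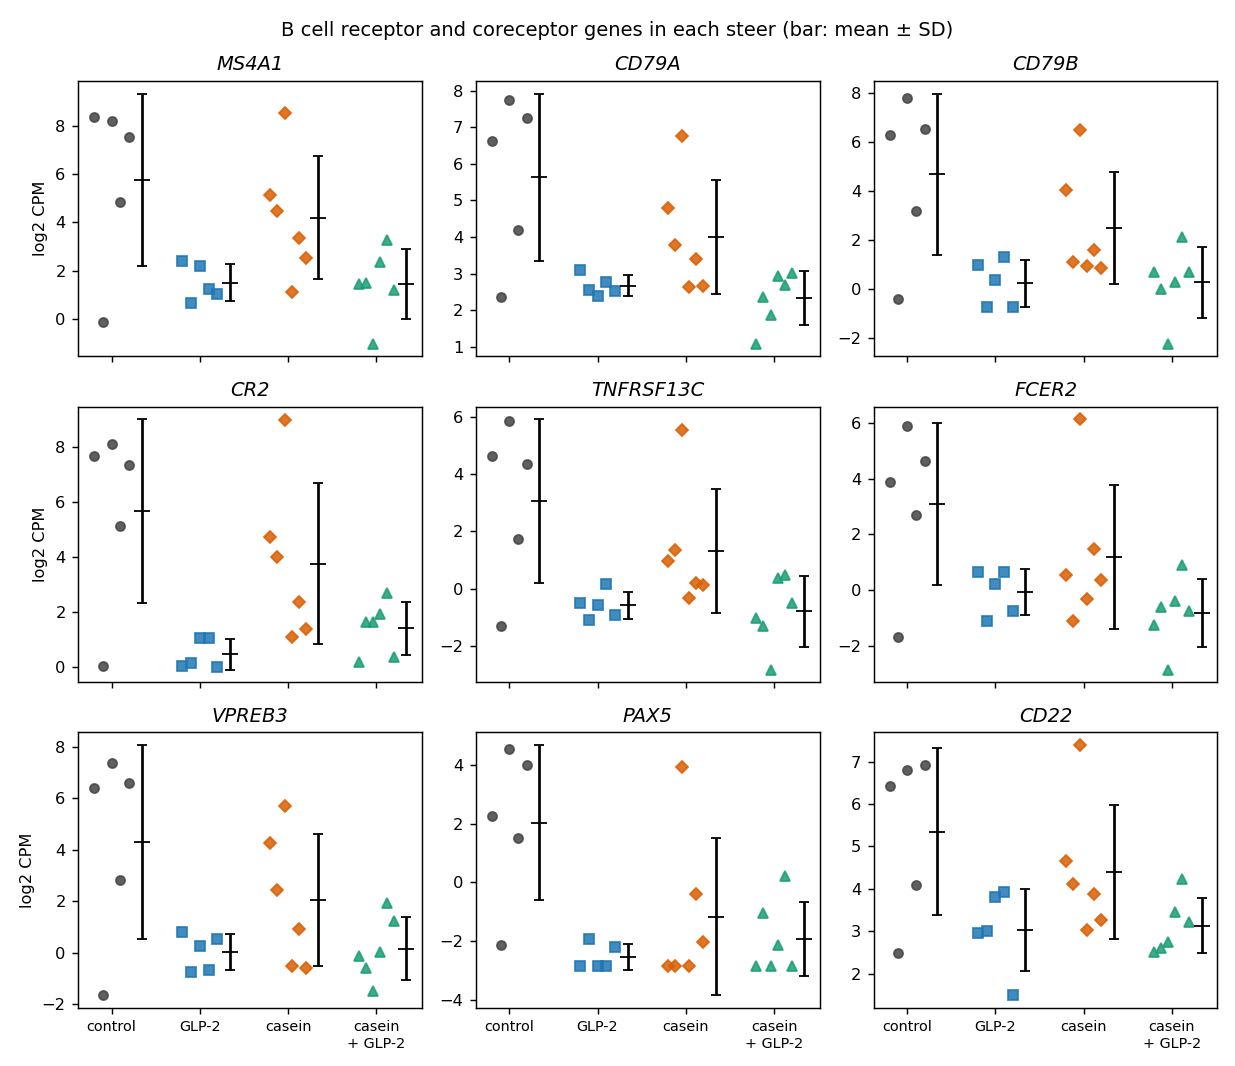
Log2 CPM of each member (vertical axes, 1 panel per gene, own scale) in each steer by treatment, with the mean ± SD of each treatment to the right of its points (n = 5 control, 5 GLP-2, 6 casein, 6 casein + GLP-2). In every panel 3 control steers and 1 casein steer lie above the rest, and control replicate 2 (second point from the left) lies among or below the GLP-2 steers.

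Whether exogenous GLP-2 administration altered these genes was asked by comparing the 11 GLP-2 injected with the 11 BSA injected steers over both infusions. MS4A1 averaged 115.5 ± 146.5 CPM with BSA and 3.42 ± 2.51 CPM with GLP-2 (SD, n = 11 each). CD79A averaged 60.1 ± 72.6 and 5.80 ± 1.92 CPM, CD79B 46.5 ± 68.9 and 1.40 ± 1.15 CPM, CR2 111.4 ± 160.4 and 2.21 ± 1.65 CPM, and CD22 53.0 ± 57.8 and 9.40 ± 4.70 CPM. The SD exceeded the mean for all 9 members with BSA.

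By the quasi-likelihood F test of edgeR, with p adjusted after Benjamini and Hochberg over 13928 genes, 8 members passed the filter on low counts and all 8 were lower with GLP-2 at an adjusted p of at most 0.05, where 8.37% of the genes tested were lower. The filter asks for a level of about 10 counts in about as many steers as 1 group holds, and PAX5, with 10 counts in 7 steers, fell short. A gene that is high in 1 group passes more readily, so the count of 8 is a description. By role, the log2 fold changes were -3.40 ± 0.614 (SE) for CD79A and -5.09 ± 0.929 for CD79B among the signalling subunits. They were -5.10 ± 0.887 for MS4A1, -5.68 ± 0.952 for CR2 and -4.46 ± 0.907 for FCER2 among the surface proteins, -4.69 ± 0.870 for TNFRSF13C and -5.08 ± 0.947 for VPREB3. The smallest change was that of the inhibitory CD22, -2.52 ± 0.547. Adjusted p from edgeR was 0.0171 for CD79A, CD79B, MS4A1, CR2, TNFRSF13C and VPREB3 and 0.0189 for FCER2 and CD22. CR2 had the second and MS4A1 the third smallest p of all genes tested. The median log2 fold change of the 8 was -4.88, against 0.01 over all genes tested.

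PAX5, the member that did not pass the filter, entered when every gene with at least 1 count was tested, and all 9 members were then lower, where 4.44% of 21855 genes were lower. Its log2 fold change in that edgeR fit was -5.17 ± 1.17 (adjusted p = 0.0208). DESeq2's Wald test also found 8 of 8 members lower, where 12.9% of its 13387 genes were lower. In bulk mucosa, fewer B cells and less RNA per B cell cannot be told apart.

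These calls were lost when the 4 high BSA steers were left out together. Those steers held 83.4% of the summed BSA CPM of CD22, 86.9% of CD79A and 91.8% to 94.3% of the other 7 members. With those 4 steers left out, an alternative chosen after seeing the data that removes the steers by the levels compared, edgeR called 0 of 8 members, and 0% of 14285 genes were lower (1927 had a p of at most 0.05 before adjustment). All 8 fitted changes were then still below 0, from -0.57 ± 0.330 for CD22 to -2.51 ± 0.605 for CR2, with adjusted p between 0.320 and 0.422 and an unadjusted p of at most 0.05 for 6 of 8, all but FCER2 and CD22. Leaving out 1 steer at a time, in contrast, left 8 members called in each of 22 fits, for which the shares of all genes are not given here. The fit without the 4 steers has fewer BSA steers and lost the calls of the whole table. It therefore cannot show how far the calls of the members rest on those 4.

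The effect was also estimated within each infusion, in a model of the 4 treatments with 15086 genes. Between GLP-2 and control steers, log2 fold changes ran from -2.86 ± 0.834 for CD22 through -3.96 ± 0.860 for CD79A, -6.04 ± 1.38 for CD79B and -6.69 ± 1.51 for CR2 to -7.42 ± 1.94 for PAX5. The PAX5 value depends on the prior count, since 4 counts remained over the 5 GLP-2 steers. None of the 9 passed in edgeR (adjusted p from 0.122 to 0.193), where 0% of genes were lower and 2103 had a p of at most 0.05 before adjustment. DESeq2 found 9 of 9 lower, where 1.6% of genes were. PAX5 entered this model with at least 10 counts in 6 of 11 BSA steers and 1 of 11 GLP-2 injected steers. A gene that is high in 1 group passes the filter more readily, so the count of 9 is a description. The edgeR count went from 0 to 9 when control replicate 2 was left out, and likewise when casein replicate 3, which enters this contrast through the shared spread, was left out. Control replicate 2 had the lowest member level of the BSA steers, so leaving it out widens the difference compared. The shares of all genes called in those fits are not given here, so the count of 9 cannot be read as a result about the members.

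Between casein + GLP-2 and casein steers the fitted changes were -2.10 ± 0.743 for CD22, -2.42 ± 0.743 for CD79A, -3.63 ± 1.14 for CD79B, -4.30 ± 1.18 for MS4A1 and -4.94 ± 1.26 for CR2. Again edgeR called 0 of 9 members (adjusted p from 0.118 to 0.172) and 0% of genes lower, with 3637 genes at an unadjusted p of at most 0.05. DESeq2 called 8 of 9 lower, all but PAX5 (adjusted p = 0.185), where 4.23% of genes were lower. The casein group owed much of its level to replicate 3. Without it the change in FCER2 went from -4.39 to -1.05 in edgeR, and that in PAX5 from -3.38 to 0.44.

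**Figure D2:**
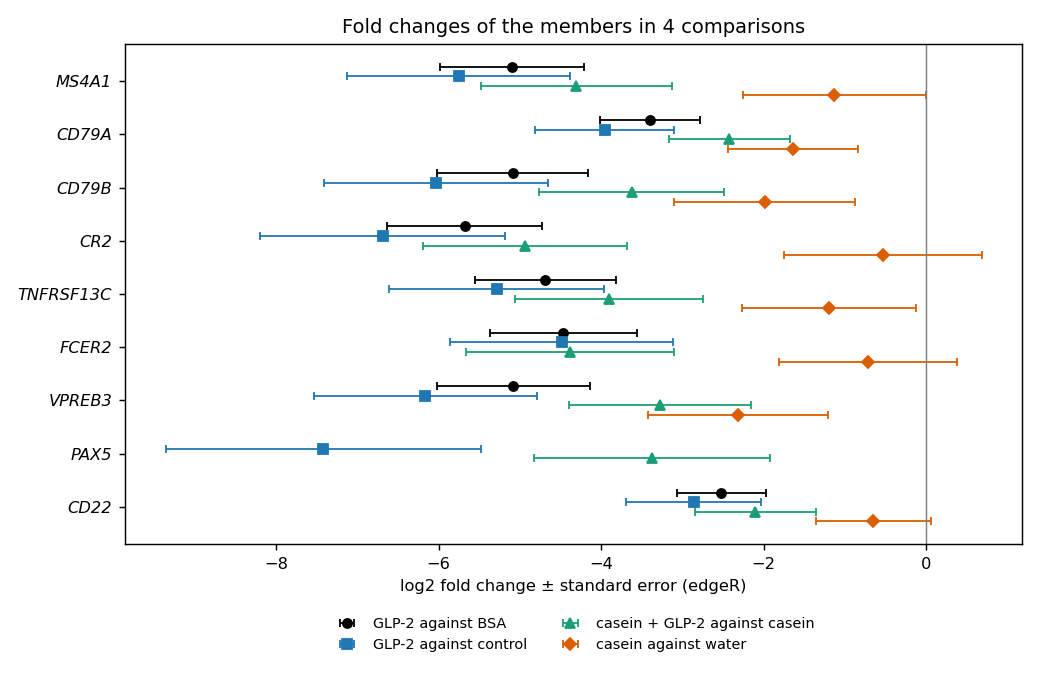
Log2 fold change ± standard error from edgeR (horizontal axis, log2 scale) of each member (vertical axis) in 4 comparisons, each marked by its own symbol. CD22 has the smallest and CR2, among the members with a black point, the largest change between GLP-2 and BSA, PAX5 has no value in the pooled comparisons because it did not pass the filter, and the bars of casein against water reach 0 for MS4A1, CR2, FCER2 and CD22.

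Casein infusion was the other factor, compared over both injections between 12 casein-infused and 10 water-infused steers. MS4A1 averaged 38.7 ± 103.7 CPM with casein and 84.4 ± 130.8 CPM with water, and CD79A 17.0 ± 29.4 and 52.2 ± 76.6 CPM. The SD was above the mean in both groups of both genes. In edgeR the 8 members tested had fitted log2 changes below 0, from -0.53 ± 1.22 for CR2 to -2.31 ± 1.11 for VPREB3, where 49.3% of all genes tested were below 0. None passed (adjusted p = 0.994 for each), 0% of 14096 genes were lower, and 474 genes had a p of at most 0.05 before adjustment, VPREB3 among them.

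DESeq2 called 1 member lower with casein, FCER2, at -3.59 ± 0.756 (adjusted p = 0.0248), where 0.0355% of genes were. That fit had replaced the FCER2 count of casein replicate 3, 1178, by 23, while edgeR, which kept it, gave -0.72 ± 1.10 (adjusted p = 0.994). The FCER2 call of DESeq2 therefore rests on a replaced value for the casein steer with the highest FCER2 level.

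Within an injection, casein against control gave fitted changes from -0.56 ± 1.10 for CR2 to -2.42 ± 1.06 for VPREB3, with 0 of 9 called by edgeR (adjusted p from 0.840 to 0.985; 0% of genes lower, 854 genes at an unadjusted p of at most 0.05) and 0 of 9 by DESeq2 (0.0332% of genes lower). Casein + GLP-2 against GLP-2 gave -0.61 ± 1.29 for FCER2 to 2.24 ± 1.86 for PAX5, with 0 of 9 called by edgeR (0% lower, 398 genes at an unadjusted p of at most 0.05) and 0 of 9 by DESeq2 (0.0199% lower). For the casein by GLP-2 interaction all 9 estimates were above 0, from 0.10 ± 1.83 for FCER2 to 4.05 ± 2.29 for PAX5, which means a smaller fitted GLP-2 change with casein than with water. Over all genes in edgeR, 52.7% of such estimates were below 0. With the 4 highest steers left out, a choice made after seeing the data, those of CD79A, VPREB3 and CD22 turned below 0. The members rise and fall together over steers, so the 9 estimates are not separate results. None of them passed in edgeR (adjusted p from 0.996 to 0.997; 0% of genes higher and 0% lower, 645 at an unadjusted p of at most 0.05) or in DESeq2, where 0.0133% of genes were higher and 0% lower.

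Compared per length, the order of the members was not the same at high and low levels. In control steers the median FPKM fell from MS4A1 (84.5) through VPREB3 (68.9), CD79B (54.0), CD79A (40.1), CR2 (27.4), CD22 (23.2) and TNFRSF13C (19.9) to FCER2 (4.24) and PAX5 (2.50). The SDs between steers were 67.8 for MS4A1 and 58.2 for VPREB3 (n = 5). They do not measure the difference of 2 genes within a steer, and the order was not tested. In GLP-2 steers CD79A (2.43) and CD22 (2.19) led, followed by MS4A1 (0.992), VPREB3 (0.864), CD79B (0.797), TNFRSF13C (0.502), FCER2 (0.292), CR2 (0.161) and PAX5 (listed at 0). Casein steers had MS4A1 (7.26), CD79A (4.90) and CD22 (4.29) in front, and casein + GLP-2 steers CD79A (2.32), CD22 (2.12) and MS4A1 (1.23).

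The same difference appeared in the share that each gene took of the summed FPKM of the 9. CD79A and CD22 took a median of 16.7% and 10.1% in BSA steers, and 29.4% and 25.3% in GLP-2 injected steers. CR2 took a median of 6.76% with BSA and 2.82% with GLP-2, and MS4A1 23.6% and 17.3%. Large shares of CD79A and CD22 were also found in a BSA steer of low level. Control replicate 2, a BSA steer with a summed FPKM of 5.01, had 41.0% CD79A and 30.1% CD22, while control replicate 3, at 696.2, had 13.1% and 4.48%. The high steers also differed among themselves. Casein replicate 3 had 15.9% CR2 and 8.58% CD79A, whereas control replicate 1 had 36.9% MS4A1 and control replicate 3 had 23.1% CD79B and 20.2% VPREB3. No test was run on these shares.

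**Figure D3:**
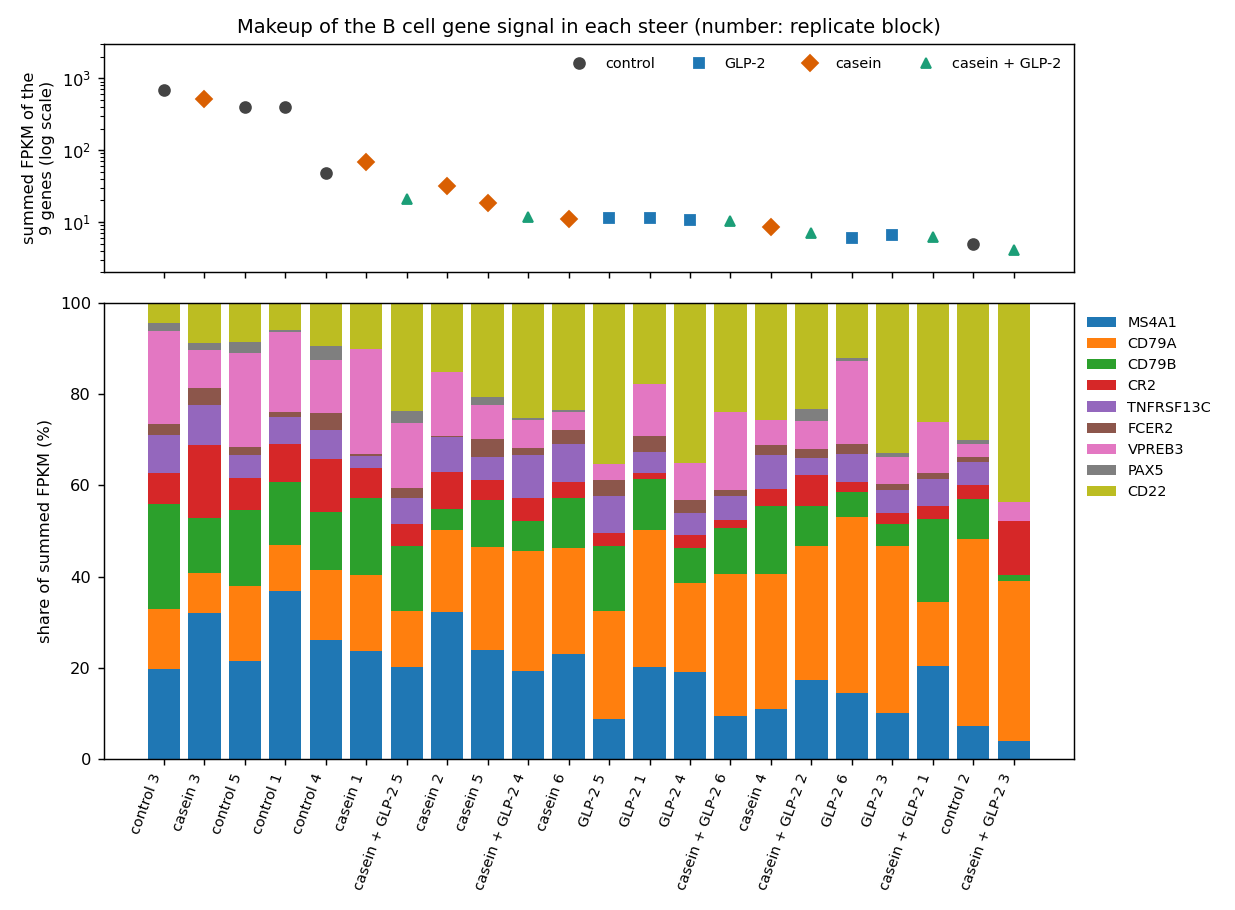
Upper panel, summed FPKM of the 9 genes in each steer on a log scale, with steers ordered from the highest to the lowest mean log2 CPM and marked by treatment. Lower panel, share of that sum taken by each gene in percent. The shares of CD79A (orange) and CD22 (olive) are 13.1% and 4.48% in the first steer and 35.1% and 43.7% in the last, but do not widen steadily, with 12.2% CD79A in casein + GLP-2 replicate 5 and 14.1% in casein + GLP-2 replicate 1.

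How alike the members were over steers is given as a description, since genes of 1 library share its depth and its tissue. Because the 4 high steers form a cluster of their own, likeness is given outside it. Over the 18 other steers, Pearson's r of log2 CPM ranged from 0.267 to 0.907 over 36 pairs (median 0.742). MS4A1 and TNFRSF13C were the most alike (0.907), followed by MS4A1 and VPREB3 (0.889), and the lowest value was between PAX5, with few counts, and CD22. Over the 11 GLP-2 injected steers the median was 0.471. There the 6 pairs among CD79B, FCER2, MS4A1 and TNFRSF13C had r between 0.846 and 0.868, and CR2 had 0.269 with MS4A1 and 0.221 with TNFRSF13C. This contrast rested on 1 library, casein + GLP-2 replicate 3, with 0 or 1 count in 3 of those genes. Without it, a choice made after seeing the data, the 6 pairs lay between 0.650 and 0.731, and CR2 had 0.680 with MS4A1 and 0.635 with TNFRSF13C. Over the 17 other steers left without that library, the median was 0.738 and the most alike pair was MS4A1 and CR2 (0.915).

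**Figure D4:**
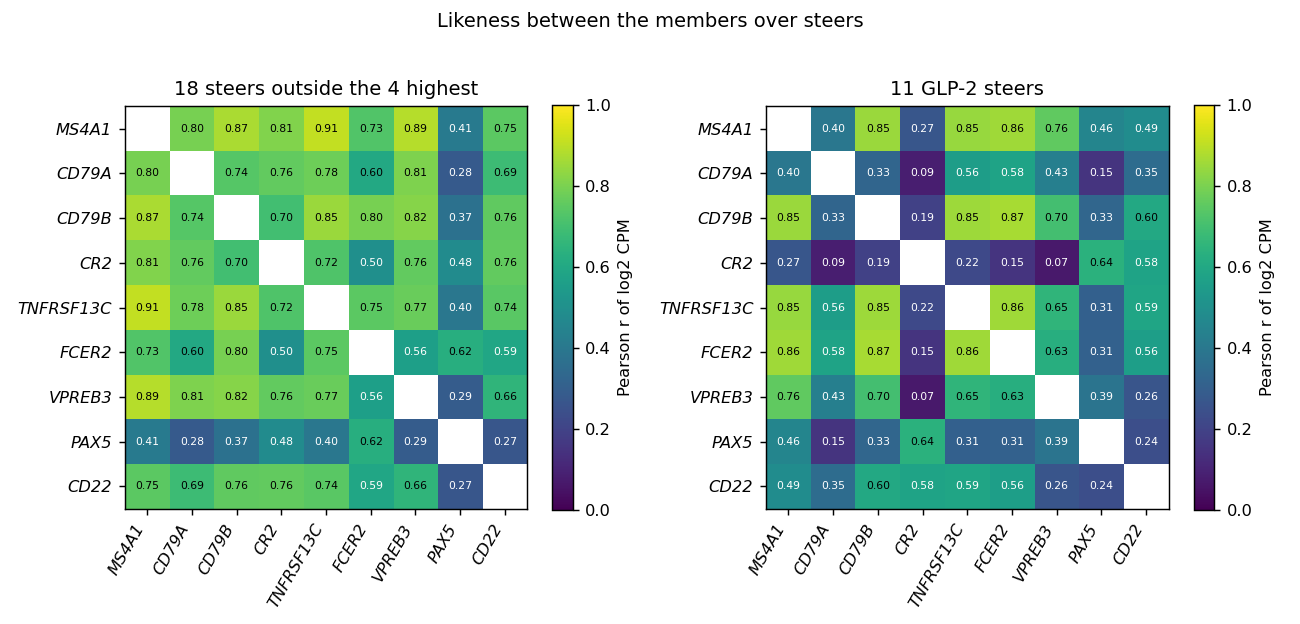
Pearson's r of log2 CPM between each pair of members (colour scale from 0 to 1, value in each cell) over the 18 steers outside the 4 highest (left) and over the 11 GLP-2 injected steers (right). The values in the right panel are lower on the whole (median 0.471 against 0.742), and its high values among MS4A1, CD79B, TNFRSF13C and FCER2 depend on casein + GLP-2 replicate 3, without which they are 0.650 to 0.731.

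Among 13237 other genes with a symbol, those whose log2 CPM most resembled the mean of the members over the 22 steers included EHD3 (r = 0.980), CXCL13 (0.972), FCRLA (0.963), TCTN1 (0.962), BANK1 (0.961), SWAP70 (0.960), TCEA1 (0.959), HMCES (0.957) and POU2AF1 (0.956). CXCL13 is the chemokine that draws B cells into follicles, BANK1 a scaffold of B cell receptor signalling, SWAP70 a protein of B cell activation and POU2AF1 a B cell coactivator. Over the 18 steers outside the 4 highest, r was 0.926 for EHD3, 0.907 for CXCL13, 0.881 for POU2AF1, 0.878 for FCRLA, 0.868 for TCTN1, 0.850 for SWAP70, 0.835 for BANK1, 0.770 for TCEA1 and 0.763 for HMCES. With treatment means removed, EHD3 (0.969), SWAP70 (0.960), TCTN1 (0.959), CXCL13 (0.958) and TLR10 (0.951) came first.

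The rest of the coreceptor and B cell surface list had 16 genes tested between GLP-2 and BSA in edgeR. Of these 6 were called lower and 0 higher, with a median log2 fold change of -0.69. Over all 13928 genes tested, 8.37% were called lower and 5.13% higher, and these shares belong beside the counts of every list below. CD81, the tetraspanin of the coreceptor, which other cells use too, was at 214.4 ± 98.9 CPM with BSA and 142.5 ± 38.6 CPM with GLP-2 (SD, n = 11 each) and tended to be lower (-0.59 ± 0.228, adjusted p = 0.0745). Within the coreceptor, CR2 and CD81 thus had fitted changes of -5.68 and -0.59. CD180, a Toll-like receptor homologue of B cells, fell by 4.29 and CD27, a memory marker that T cells share, by 1.34 on the log2 scale (edgeR adjusted p = 0.0189 for both), whereas CD38 was at 0.00 (adjusted p = 0.996).

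Of 26 genes of proximal receptor signalling, 4 were called lower and 1 higher, with a median of -0.11. Of all genes tested, 8.37% were lower and 5.13% higher. The lower genes were the adaptors BANK1 (-2.85 ± 0.594) and BLNK (-1.97 ± 0.444), the Ras exchange factor RASGRP3 (-1.89 ± 0.487) and the kinase PRKCB (-0.57 ± 0.182), with edgeR adjusted p from 0.0189 to 0.0423. ITPR3, a calcium channel that epithelium also uses, rose by 0.70 ± 0.190 (adjusted p = 0.0252). SYK, the kinase that docks on CD79A and CD79B, was at -0.01 ± 0.153 (adjusted p = 0.977), BTK at -0.52 ± 0.274 (0.182) and LYN at 0.22 ± 0.143 (0.267).

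Among genes that restrain the receptor 11 were tested, and 5 were called lower and 1 higher (median -0.31). INPP5D, the lipid phosphatase SHIP1, was at -0.58 ± 0.168 (adjusted p = 0.0306), CD5 at -0.58 ± 0.158 (0.0259) and PTPN6, the phosphatase SHP-1 that CD22 recruits, at -0.44 ± 0.141 (0.0421), each in edgeR. CSK and PTPN2 were the other lower genes, at -0.40 and -0.31. PAG1, an adaptor that anchors CSK, rose by 1.18 ± 0.326 (0.0268), and INPPL1 was at 0.05 (0.804). Another entry of PAG1 had 0 counts in every steer.

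Of the B lineage transcription factors beside PAX5, 16 were tested, 5 were called lower and 0 higher, and 15 had a fitted change below 0 (median -0.36). POU2AF1 fell by 4.00 ± 0.792, POU2F2, the octamer factor it binds, by 1.87 ± 0.456, and SPIB by 1.25 ± 0.333 (edgeR adjusted p from 0.0189 to 0.0246). MEF2C (-1.35) and TCF3 (-0.95) were lower too, and IKZF3 was at -0.09 (0.871). EBF1, which acts with PAX5, did not pass the filter, with 2.67 ± 3.10 CPM with BSA and 0.383 ± 0.325 CPM with GLP-2 (SD, n = 11 each).

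In the BAFF and APRIL system around TNFRSF13C, 3 of 8 genes tested were called lower and 0 higher (median -0.60). TNFRSF17, the receptor BCMA of plasma cells, was at -2.28 ± 0.646 (adjusted p = 0.0292), the ligand BAFF, TNFSF13B, at -0.91 ± 0.287 (0.0414) and TRAF3, an inhibitor of BAFF receptor signalling, at -0.74 ± 0.178 (0.0218) in edgeR. The receptor TACI, TNFRSF13B, tended to be lower (-1.27 ± 0.444, 0.0554), and MAP3K14 was at -0.06 (0.756). Of the early B cell development list 1 gene passed the filter, MME, which enterocytes also express, at 0.94 ± 0.330 (0.0553).

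Lists of other cells and states were set beside the members to see what moved with them. Follicle and germinal center genes had 10 of 11 called lower in edgeR and 0 higher (median -2.05), where 8.37% of all genes tested were lower. CXCL13 was at -7.76 ± 1.29 (adjusted p = 0.0171), with 0.176 to 644.3 CPM with BSA and 0.0829 to 1.81 CPM with GLP-2. CXCR5, the receptor of CXCL13, was at -2.79 and S1PR2, which holds germinal center B cells in place, at -1.87 (adjusted p = 0.0189 for both). The summed CPM of this list was 602.5 to 1491 in the 4 high steers and 62.9 to 161.3 in the other 18.

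Plasma cell genes gave 3 of 10 lower and 0 higher (median -0.75): POU2AF1, which is on the transcription factor list too, DERL3 at -1.78 and TXNDC5 at -1.07, while PRDM1, the plasma cell regulator, was at 0.01 (adjusted p = 0.972). JCHAIN, the joining chain of IgA (-1.69, adjusted p = 0.0654), MZB1 (-1.56, 0.0856) and FKBP11 (-0.42, 0.0576) tended to be lower in edgeR. Most of the list's summed CPM was PIGR, the IgA transporter of epithelium. Without PIGR, left out after seeing the data, the sum was 2474 to 6468 CPM in the 4 high steers (median 2599) and 438.4 to 4004 CPM in the others (median 1023). T cell genes gave 0 of 15 called in edgeR (3 above and 12 below 0, median -0.11), of which 1, LCK, had an unadjusted p of at most 0.05. Summed CPM of the T cell list was 785.8 to 3069 with BSA and 1129 to 2406 with GLP-2, and CD3D was at -0.01 (0.988). Of the macrophage and dendritic cell genes MRC1 rose (0.85 ± 0.272, adjusted p = 0.0421), 0 of 11 were lower and C1QB was at 0.06 (0.853).

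Of the epithelial genes 3 of 15 were called higher and 0 lower, with a median of 0.79, and the other 12 did not pass. Of all genes tested, 5.13% were higher. LCT, the lactase of the brush border, rose by 1.87 ± 0.590, CDH1 by 0.90 ± 0.259 and EPCAM by 0.68 ± 0.226 (edgeR adjusted p from 0.0307 to 0.0470), and KRT18 was at -0.16 (0.633). Summed CPM of the list ranged from 3662 to 54890 with BSA (median 21800) and from 20690 to 74400 with GLP-2 (median 35220). Within the 18 steers outside the 4 highest, the mean log2 CPM of the epithelial list had r = -0.667 with that of the members (a description over libraries in which CPM share a fixed total). Control replicate 5, with 3662 CPM, had the least epithelial RNA and control replicate 2, with 54890 CPM, the most among the BSA steers. The part that the epithelial share of a sample has in the members' levels was not tested.

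Smooth muscle genes had 0 of 10 called in edgeR (median -1.07, 4 with an unadjusted p of at most 0.05, SYNM at -0.26 with an adjusted p of 0.778). Their summed CPM was 139.6 to 1578 in the 4 high steers and 67.4 to 921.2 in the others. Proliferation genes had 5 of 10 called lower and 0 higher (median -0.90), where 8.37% of all genes tested were lower. MCM2 was at -1.42, AURKB at -1.29 and PCNA at -1.04 (adjusted p from 0.0229 to 0.0260), and TOP2A at -0.50 (0.236). The 4 high steers held 1133 to 1277 CPM of proliferation genes, the other 18 held 270.2 to 973.6 CPM, and the part of dividing cells in the members' levels was not tested. Between casein and water edgeR called 0 genes of each list. The lists were drawn up with earlier results of these data known, so their counts are no independent evidence.

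**Figure D5:**
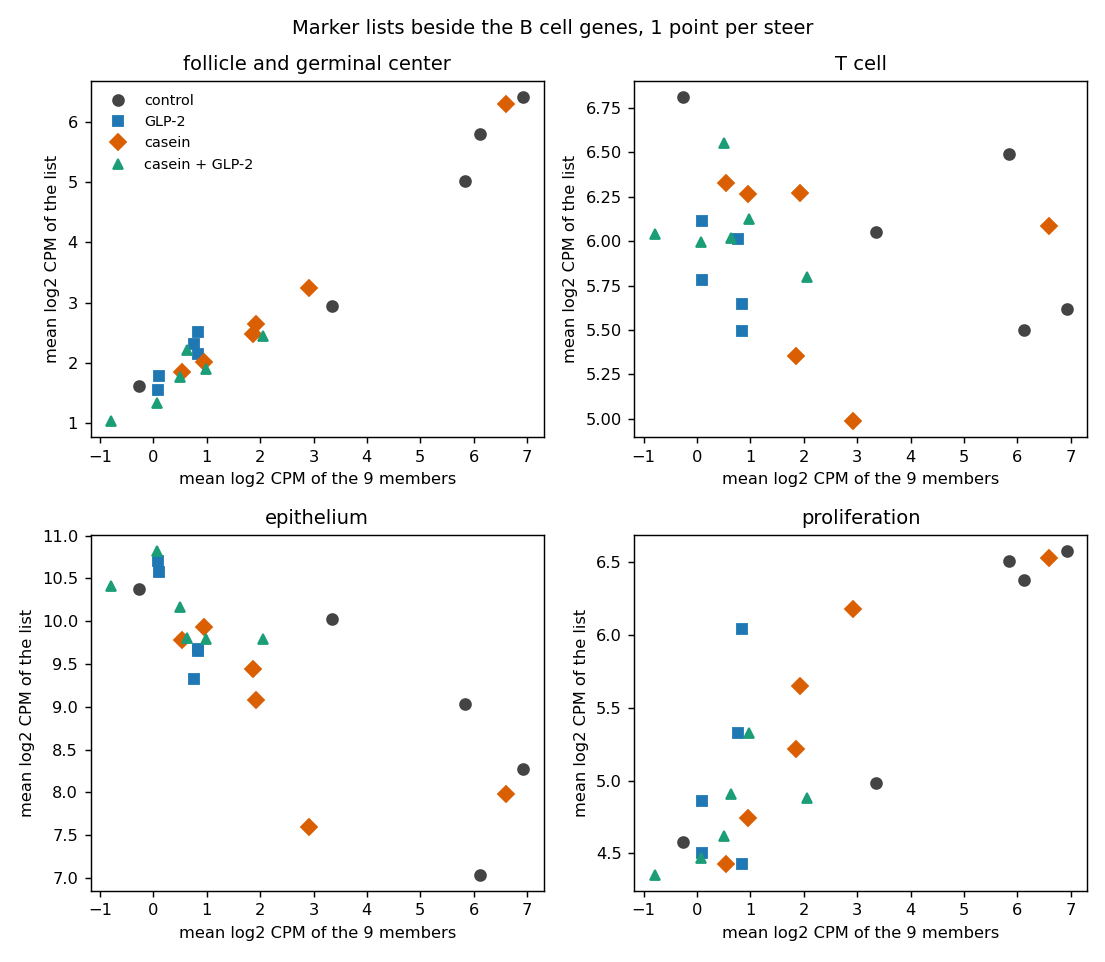
Mean log2 CPM of 4 gene lists (vertical axes, own scale) against the mean log2 CPM of the 9 members (horizontal axes), 1 point per steer, marked by treatment. The 4 high BSA steers lie at the right. Follicle genes rise along with the members and epithelial genes fall. T cell genes lie between 4.99 and 6.81 over all steers. Over the 18 steers outside the 4 highest, the T cell list had r = -0.461 with the mean of the members and the epithelial list -0.667.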

How the data were processed

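RNA-seq libraries of the jejunal mucosa from 22 steers were used, grouped by the infusion and injection given in the labels. A GLP-2 steer of block 2 was not analysed here. The authors did not sequence a control sample of low RNA integrity. The authors filtered reads with fastp, aligned them to ARS-UCD1.2 with HISAT2 2.0.5 and counted them per gene with featureCounts 1.5.0-p3. They deposited raw counts and, computed from these with gene length, FPKM values. Whether counting used strand is not given in the sources used here.

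Counts were filtered by filterByExpr (minimum count 10), normalized by TMM and tested by the quasi-likelihood test of edgeR 4.0.16 in R 4.3.3, with p adjusted (Benjamini-Hochberg) over all genes tested. A call needed an adjusted p of at most 0.05, and values up to 0.1 were tendencies. The injections and the infusions were each compared over pooled groups, and the other contrasts came from a model of the 4 treatments. Log2 CPM used a prior count of 2. DESeq2 1.42.0, limma 3.58.1 on log2(FPKM + 1) and other settings were alternatives. The code was tested on simulated data. FPKM ranked genes within treatments. Each library is 1 steer, so the p-values rest on the spread between animals. In the pooled comparisons that spread also holds the other factor, and in all main fits the block. Intervals from 0 counts take 3 counts as the floor.

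The 9 members and all lists were chosen with earlier results of these data known. Named beside the members were, per list, called genes with the 3 smallest p between GLP-2 and BSA, the gene farthest from the threshold, genes whose values stand beside a result, and the 10 genes most like the members (5 with treatment means removed). Further genes (LYN, BTK, CSK, PTPN2, PTPN6, PRKCB, ITPR3, MEF2C, TCF3, TNFRSF13B, LCK, MME, EBF1, RAG1, RAG2, DNTT, VPREB1, PIGR, JCHAIN, MZB1, FKBP11) were named after their values were seen. Some genes that this rule names are not reported here. No sequence is printed.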

Additional observations from a re-analysis of the deposited data

Results flagged for a closer look

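Of 36 groups of steers (9 members in 4 treatments), PAX5 in GLP-2 steers, with at most 3 counts, was not compared. In the others the highest or lowest log2 CPM was compared with the rest of its treatment by Dixon's ratio. Chance alone marks about 1 in 20 independent groups, but the members rise and fall together over steers, so these groups are not independent. Marked were 4 groups, all through casein replicate 3 as the highest of 6 casein steers. Its log2 CPM was 5.56 for TNFRSF13C, where the next casein steer was at 1.36, and 6.13 for FCER2, where the next was at 1.47. For PAX5 it was 3.91 against -0.39, and for CD22 7.39 against 4.66. These values stood on 792, 1178, 251 and 2839 counts, so counting error is small beside the gaps. The same steer held 7446 CPM of epithelial genes and 1491 CPM of follicle genes. Their part in its levels was not tested.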

How the results depend on the processing

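All values are from edgeR unless another tool is named. In GLP-2 against BSA 8 members were called, where 8.37% of genes were lower. The count became 9 without a filter (4.44% of genes lower) and 0 with the 4 highest steers left out (0% lower), a setting added after seeing the data. At an adjusted p of at most 0.01 it was 0, but no gene of the table passed there, since the smallest adjusted p in edgeR was 0.0171. It was 3 of 3 tested with at least 10 counts in every steer and 7 (FCER2 lost) in limma on log2(FPKM + 1). The shares of all genes in these last settings are not given here. With the replicate block the count was 8, while genes called over the table went from 1881 to 689. Steers of 1 block had a mean r of 0.0331 over 30 pairs (-0.464 to 0.387, 13 pairs over 0.1). This low mean does not exclude an effect of the block. The main model left the block out, although treatments were assigned within blocks. DESeq2 called 1 member between casein and water (0.0355% of genes lower), 9 between GLP-2 and control (1.6%) and 8 between casein + GLP-2 and casein (4.23%). In each of these edgeR called 0 members and 0% of genes lower. Leaving out 1 steer in turn gave 0 to 9 in edgeR for GLP-2 against control, with the shares of all genes in those fits not given here.

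Fitted log2 changes that turned were all uncalled. With the 4 highest steers left out, casein against water gave 0.50 (MS4A1), 0.17 (CD79A), 0.47 (CD79B), 0.0656 (CR2), 0.0841 (TNFRSF13C), 0.89 (VPREB3) and 0.28 (CD22), casein against control 0.0374 (MS4A1), 0.12 (CD79A), 0.038 (CD79B), 0.57 (VPREB3) and 0.39 (CD22), casein + GLP-2 against casein 0.50 (PAX5), and the interaction -0.34 (CD79A), -0.0757 (VPREB3) and -0.36 (CD22). Casein + GLP-2 against GLP-2 turned to -0.0076 (CD22) by upper quartile scaling, 0.12 (CD79A) with the replicate block, -0.0008 and -0.25 (TNFRSF13C) in limma on log2(FPKM + 1) and log2(FPKM + 0.1) and -0.0193 (MS4A1) in the latter, and casein against water to 0.19 (CR2) with injection as a covariate. Leaving out 1 steer in turn gave, for casein + GLP-2 against GLP-2, -0.22 to 0.55 (MS4A1), -0.26 to 0.70 (CD79B), -0.22 to 0.42 (TNFRSF13C), -0.13 to 0.72 (VPREB3) and -0.28 to 0.25 (CD22), for casein against water -3.49 to 0.079 (CR2) and -3.64 to 0.25 (FCER2), for casein against control -4.06 to 0.15 (FCER2), for casein + GLP-2 against casein -4.84 to 0.44 (PAX5) and for the interaction -0.76 to 3.47 (FCER2). The causes were not tested. PAX5 had 0 to 13 counts in GLP-2 injected steers, so its values there carry a large counting error.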
